A study of Mus musculus with 4 samples.

Results

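This account describes 37 genes that regulate apoptosis or respond to the transcription factor p53, in mouse aortic smooth muscle cells with and without a deletion of Yap1 and Wwtr1. They were chosen by gene symbol, and all 37 were found among the 39179 genes of the deposited table. RNA was sequenced from primary aortic smooth muscle cells of mice labelled Sm-Yap/Taz-KO (2 libraries, the knockout) and of wild-type mice (2 libraries), both taken 18 days after tamoxifen injection. The sample titles say only aorta, and markers of other cell types were found in both groups, as given below. Yap1 and Wwtr1 encode YAP and TAZ, the transcriptional co-activators that the Hippo pathway restrains. The labels give no Cre driver, no age or sex of the mice and no number of animals behind each library, so p-values reflect the spread of these libraries alone, which may be technical.

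Cells enter apoptosis by an intrinsic or an extrinsic route. In the intrinsic route, BH3-only proteins such as BIM and NOXA bind anti-apoptotic BCL2 proteins and free BAX and BAK to open the outer mitochondrial membrane, after which cytochrome c and APAF1 activate caspase-9. In the extrinsic route, death receptors activate caspase-8, and IAP proteins (inhibitors of apoptosis) restrain caspases and death receptor signalling. The transcription factor p53 induces several BH3-only genes together with genes of cell cycle arrest and repair, and MDM2 and MDM4 hold it in check. Loss of smooth muscle cells by apoptosis is a known feature of aneurysm and of advanced atherosclerosis.

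The bases before the annotated starts were read for 33 of the 37 genes from RefSeq promoters (GRCm38.p6). Bik, Pmaip1, Trp53inp1 and Zmat3 had no entry there. The p53 response element was searched as 2 copies of the p53 decamer consensus with at most 13 bases between them, at most 2 mismatches in all and the core C and G of each decamer kept. It was found within 250 bases before an annotated start of 3 genes, Ccng1, Bax and Sesn1. Of all 32851 promoters of that length, 3.34% held one. With at most 1 mismatch it was found in Ccng1 alone of the 33, and in 0.505% of all promoters. A gene can have several promoter entries, some inside its span, and was counted if any of them matched. The shares of promoters, here and below, count each entry, so the units differ. The Sesn1 match stood before such an inner start, since the gene begins at 41809935. The p53 response element matches are shown because Ccng1, Bax and Sesn1 are well known p53 response genes whose transcripts did not pass the test below. Capitals mark the decamers, and each sequence runs 5′ to 3′ on the strand of its gene.

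Ccng1, chr11:40755287-40755536, minus strand: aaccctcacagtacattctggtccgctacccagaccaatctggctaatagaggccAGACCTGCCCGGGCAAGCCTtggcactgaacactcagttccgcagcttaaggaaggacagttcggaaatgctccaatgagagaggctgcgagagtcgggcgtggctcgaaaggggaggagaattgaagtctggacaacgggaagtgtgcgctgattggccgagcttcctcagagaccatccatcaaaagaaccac
Bax, chr7:45467085-45467119, minus strand: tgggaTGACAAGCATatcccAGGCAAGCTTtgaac
Sesn1, chr10:41887248-41887280, plus strand: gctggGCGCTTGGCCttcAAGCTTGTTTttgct

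The cyclic AMP response element TGACGTCA, which reads the same on both strands, stood within 250 bases before the start of Plk2, Btg2 and Birc2, and in 1.55% of all promoters. Plk2 and Btg2 are both immediate early genes as well as p53 response genes. Their windows are shown because Plk2 rose in these libraries and Btg2 did not pass, a difference between the genes that was not itself tested. Capitals mark the element, which lay 62 to 55 bases before the start of Plk2 and 166 to 159 bases before that of Btg2.

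Plk2, chr13:110394794-110395043, plus strand: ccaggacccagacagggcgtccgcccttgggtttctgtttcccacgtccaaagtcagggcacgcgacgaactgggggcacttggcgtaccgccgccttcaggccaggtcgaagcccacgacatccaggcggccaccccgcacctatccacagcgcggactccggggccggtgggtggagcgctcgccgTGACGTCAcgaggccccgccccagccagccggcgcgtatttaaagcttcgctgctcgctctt
Btg2, chr1:134079156-134079405, minus strand: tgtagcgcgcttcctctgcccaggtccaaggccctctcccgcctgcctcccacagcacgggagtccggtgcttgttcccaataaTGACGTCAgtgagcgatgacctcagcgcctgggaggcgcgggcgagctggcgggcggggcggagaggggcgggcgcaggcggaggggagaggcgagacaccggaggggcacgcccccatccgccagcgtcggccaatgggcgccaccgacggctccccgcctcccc
Birc2, chr9:7837075-7837102, minus strand: gcgcgtctgcTGACGTCAcctcaacggc

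The hexamer GGAATG, bound by the TEAD factors through which YAP and TAZ act, was found on either strand before 5 of the 33 genes (Bcl2l1, Mcl1, Hrk, Eda2r and Gdf15) and in 12.6% of all promoters. The AP-1 motif TGANTCA was found in 2 of them (Bcl2a1b and Mdm4) and in 6.75% of all promoters, and the NF-κB motif in 2 (Bcl2l1 and Bbc3) and in 3.90%. The CArG box and TTCNNNGAA, in 1.47% and 7.02% of all promoters, were found before 0 of the 33 genes. The AP-1 letters can overlap those of other motifs, and a match is a run of letters, not a measured binding site. Of the 3 genes with a promoter entry that rose (Plk2, Birc3 and Casp8), the cyclic AMP response element of Plk2 was the single match to any motif searched.

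The libraries held an estimated 11810000 to 12300000 reads on genes in the knockout, fewer than the 15620000 to 16810000 of the wild type. Yap1 was at 947 and 962 normalized counts in knockout libraries, and at 1966 and 1877 in wild-type libraries (log2 fold change -1.01, adjusted p = 0.0080 by limma), while Wwtr1, at 2848 and 2466 versus 3423 and 4016, missed the threshold (adjusted p = 0.055 by limma). The 9 smooth muscle markers summed to 139737 to 182914 counts in the knockout and 427808 to 451687 in the wild type, and none was at 0 in any group. Markers of other cells moved as well: 15 of 15 macrophage markers were higher in the knockout (summed level 16166 to 22466 against 1472 to 4149), and so were 7 of 10 adipocyte markers (12806 to 13663 against 1690 to 5292), 5 of 10 endothelial markers (10927 to 12657 against 4672 to 7015) and 2 of 10 fibroblast markers (314281 to 328740 against 89865 to 197852). None of these markers was at 0 in both libraries of a group. In the wild-type libraries, for instance, Pecam1 was at 1627 and 1907 and Adipoq at 176 and 589. The values below may therefore not come from smooth muscle cells alone. Of 6 neutrophil markers 3 were tested, and 2 of them rose (summed level 85 to 503 against 6 to 8). The 3 tested, and the macrophage marker Fcgr1, reached the required mean of 10 counts through their knockout libraries alone. In such bulk samples, fewer cells of a type and less RNA per cell cannot be told apart. Below, values are normalized counts of replicates 1 and 2, and log2 fold changes are knockout minus wild type, taken on log2(value + 1).

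Of the 37 genes, 34 had a mean of at least 10 normalized counts and were tested, and 4 rose in the knockout: Plk2, Pmaip1, Birc3 and Casp8. None fell. This is 11.8% of the members tested, and 16.3% of the 15058 genes tested in all passed the same limma threshold of an adjusted p of 0.05: 9.58% of the genes tested were higher and 6.7% lower. At an unadjusted limma p under 0.05, 9 members were higher and 3 lower, which is 12 of the 34. Of the 15058 genes tested in all, 4898 were under it in either direction. Adjusted p-values between 0.05 and 0.1 were found for 7 members. Knockout and wild-type values did not overlap for 23 of the 34 members, or 67.6%, nor for 62.8% of all genes tested. The median log2 fold change was 0.16 over these 34 members and -0.02 over all genes tested. The calls depended on the settings, since limma called 0 members without the filter on low values and 0 without the intensity trend, where 12 had an unadjusted p under 0.05 in each. The 3 members under the limit were Bcl2a1b, Hrk and Gdf15. Just inside the threshold was Casp8 (adjusted p = 0.041), and just outside it were Sesn1 (0.060), Apaf1 (0.062), Bcl2l2 (0.063) and Bok (0.064).

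**Figure D1:**
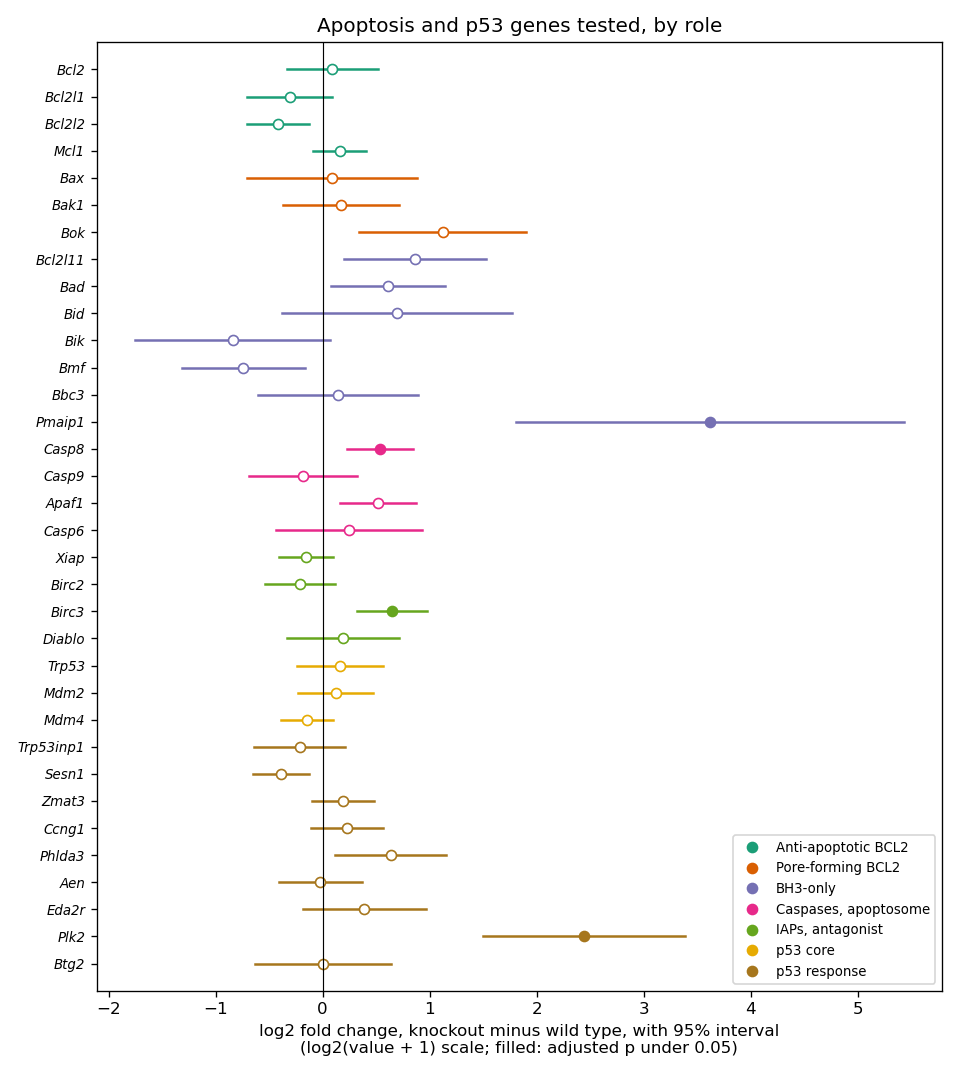
Log2 fold change of the 34 members tested (x axis, knockout minus wild type, log2(value + 1) scale), with the 95% limma interval as a line and the role as colour. Filled points passed an adjusted p of 0.05: Plk2, Pmaip1, Birc3 and Casp8, all to the right of 0.

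Among the anti-apoptotic BCL2 genes, which encode the proteins that hold BAX and BAK in check, 0 of 4 tested passed. Mcl1, whose short-lived product guards against BIM and NOXA, was at 3958 and 4288 in knockout libraries, 3766 and 3617 in wild-type libraries. Both knockout values lay above both wild-type values, by a log2 fold change of 0.16 (95% interval -0.09 to 0.40). Bcl2 was at 2347 and 1804 versus 2159 and 1726, so its groups overlapped (0.09, interval -0.33 to 0.52). Bcl2l1, which encodes BCL-XL, was at 713 and 777 versus 1059 and 801 and had a log2 fold change of -0.31 (interval -0.71 to 0.09). Bcl2l2, which encodes BCL-W, was at 481 and 492 versus 662 and 641. Its knockout libraries lay well below the wild-type ones and replicates differed little, for a log2 fold change of -0.42 (SE 0.12, interval -0.71 to -0.13), but it missed the threshold in the fit over all genes. An annotated same-strand gene, Gm20521, covers 13.3% of the exon length of Bcl2l2. Bcl2a1b, a BCL2 relative of leukocytes, was at 0 and 1 in knockout libraries, 1 and 0 in wild-type libraries. Its near-identical copies Bcl2a1a (0 and 1 versus 0 and 0) and Bcl2a1d (0 and 6 versus 0 and 0) were as low, and the division of reads between the copies is not known.

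Of the pore-forming genes, Bax and Bak1 differed by less than the replicates did. Bax was at 73 and 123 in knockout libraries, 81 and 98 in wild-type libraries (log2 fold change 0.09, interval -0.71 to 0.89). Bak1 was at 147 and 129 versus 111 and 135 (0.17, interval -0.37 to 0.71). A same-strand gene, Gm45808, covers 12.2% of the exon length of Bax, and an opposite-strand gene, Ggnbp1, covers 18.2% of that of Bak1. Bok, the third gene of this class, whose product can permeabilize mitochondria without BAX and BAK, was at 70 and 65 versus 32 and 29. The mean of Bok was 2.21-fold that of the wild type and replicates lay close together (log2 fold change 1.12, SE 0.32, interval 0.34 to 1.90), but it did not pass (adjusted p = 0.064 by limma).

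The BH3-only genes, which encode the triggers of the intrinsic route, included 1 gene that rose and none that fell among 7 tested. Pmaip1, which encodes NOXA, the partner and antagonist of MCL1, was at 27 and 80 in knockout libraries, 2 and 4 in wild-type libraries. Both knockout values lay far above the wild-type ones, yet the knockout libraries themselves differed 2.96-fold. The means were 53.5 ± 37.5 (SD, n = 2) and 3 ± 1.41, and the log2 fold change of Pmaip1 was 3.62 (SE 0.74, and an adjusted p = 0.027 by limma). The gene lies on chromosome 18 (66458533 to 66465565, plus strand, GRCm38). It met the limit on low values through its knockout libraries alone. With any 1 library left out, its adjusted p ran from 0.0995 to 0.21, with log2 fold changes from 2.85 to 4.39.

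Bcl2l11, which encodes BIM, the BH3-only protein best known from growth factor withdrawal, was at 142 and 198 versus 80 and 105. Its groups did not overlap, with a mean 1.84-fold that of the wild type (log2 fold change 0.86, SE 0.27, and an adjusted p = 0.082 by limma). Bad, whose product growth factor kinases inactivate, was at 131 and 148 versus 92 and 90 (0.61, SE 0.22). An opposite-strand gene, Gpr137, covers 20.5% of the exon length of Bad, so reads may be shared. Bid, which links caspase-8 to mitochondria, was at 41 and 38 versus 18 and 32 (0.69, interval -0.38 to 1.77). The opposite-strand gene Bcl2l13 covers 17.7% of the exon length of Bid. Bmf and Bik had negative values: Bmf, whose product is held at the cytoskeleton, was at 196 and 151 versus 337 and 246 (-0.74, SE 0.23, and an adjusted p = 0.084 by limma), with every knockout value under every wild-type value. Bik was at 32 and 29 versus 68 and 45 (-0.84, interval -1.75 to 0.07). Bbc3, which encodes PUMA and with Pmaip1 is a classical p53 target, was at 68 and 69 versus 74 and 52. The wild-type values of Bbc3 lay on either side of the knockout ones (0.14, interval -0.61 to 0.89). Hrk, a BH3-only gene of neurons, was at 5 and 3 versus 0 and 2 and was not tested.

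**Figure D2:**
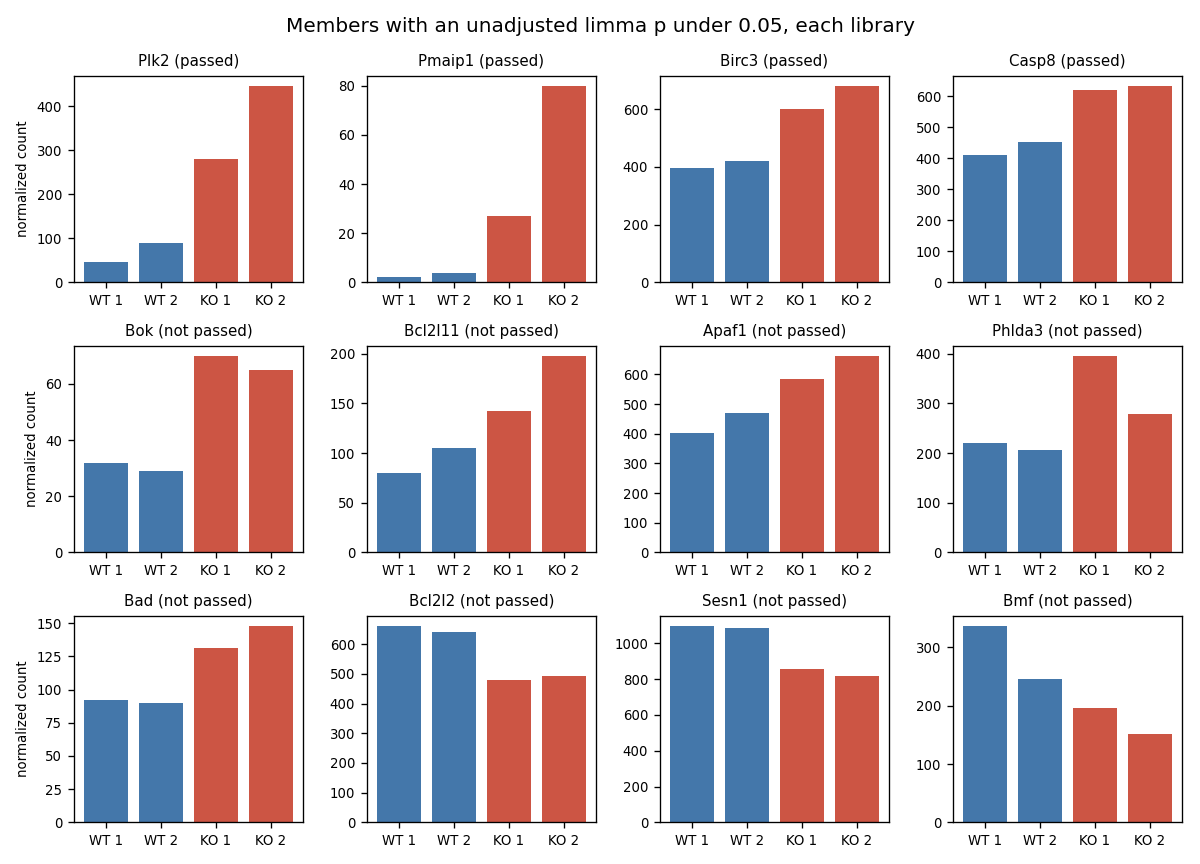
Normalized counts (y axis, starting at 0) in each of the 4 libraries (WT, wild type, blue, and KO, knockout, red) for the 12 members with an unadjusted limma p under 0.05. The top row shows the 4 that passed after adjustment, with Pmaip1 at 80 in knockout replicate 2 and 27 in replicate 1. In each panel the 2 groups do not overlap.

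Of the caspase and apoptosome genes 1 of 4 passed. Casp8 encodes the initiator caspase of death receptors, which also blocks necroptosis. It was at 618 and 633 in knockout libraries, 410 and 453 in wild-type libraries, and replicates differed far less than the groups did. The means of Casp8 were 626 ± 10.6 and 432 ± 30.4 (SD, n = 2), 1.45-fold, for a log2 fold change of 0.54 (SE 0.13, and an adjusted p = 0.041 by limma). The gene lies on chromosome 1 (58795374 to 58847503, plus strand). With 1 library left out, its adjusted p in limma ran from 0.118 to 0.263. Apaf1, which encodes the scaffold of the apoptosome, was at 585 and 663 versus 404 and 469. It had nearly the same log2 fold change, 0.52 (SE 0.14), and lay just outside the threshold. The value of Apaf1 passed after rescaling to the same total (adjusted p = 0.042 by limma). Casp9, the caspase that APAF1 activates, was at 200 and 162 versus 225 and 186 (-0.18, interval -0.69 to 0.32). Casp6, an executioner caspase, was at 103 and 88 versus 68 and 94 (0.25, interval -0.43 to 0.93). Both of these overlapped between the groups.

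In the IAP group 1 of 4 passed. Birc3, which encodes cIAP2, a ubiquitin ligase of TNF receptor signalling and a known NF-κB target, was at 599 and 681 versus 395 and 420. Its means were 640 ± 58.0 and 408 ± 17.7 (SD, n = 2), 1.57-fold, for a log2 fold change of 0.65 (SE 0.13, and an adjusted p = 0.029 by limma). Its paralog Birc2 (cIAP1) lies next to it on chromosome 9 (Birc3 at 7848699 to 7873186 and Birc2 at 7818227 to 7837064, both on the minus strand). Birc2 was at 622 and 636 versus 795 and 669, with a log2 fold change of opposite sign (-0.21, interval -0.54 to 0.11). The groups of Birc2 did not overlap either. Per kilobase of exon, the mean levels of Birc2 and Birc3 were 160 and 81.4 in wild-type libraries but 137 and 128 in knockout libraries, so the paralogs lay closer together there. With 1 library left out, the adjusted p of Birc3 in limma ran from 0.117 to 0.224. Xiap, the direct caspase inhibitor, was at 2894 and 2611 versus 3050 and 3090 (-0.16, interval -0.41 to 0.09). Diablo, whose product SMAC releases caspases from XIAP, was at 413 and 284 versus 313 and 288 (0.19, interval -0.33 to 0.71). An opposite-strand gene, B3gnt4, covers 21.5% of the exon length of Diablo.

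None of the 3 p53 core genes passed. Trp53 itself was at 233 and 228 in knockout libraries, 214 and 198 in wild-type libraries (log2 fold change 0.16, interval -0.24 to 0.57). Mdm2, which encodes the ubiquitin ligase of p53 and is also its target, was at 1036 and 860 versus 811 and 926, and its groups overlapped (0.12, interval -0.23 to 0.47). Mdm4, whose product blocks the transactivation domain of p53, was at 1329 and 1378 versus 1503 and 1491 (-0.15, interval -0.39 to 0.10). Each interval spanned 0, and the bound farthest from 0 was the upper one of Trp53.

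Of the p53 response genes 1 of 9 tested passed. Plk2, which encodes polo-like kinase 2, a stress and immediate early kinase of centriole duplication, was at 281 and 447 in knockout libraries, 46 and 90 in wild-type libraries. Both knockout values lay far above the higher wild-type value, while replicates differed 1.59-fold and 1.96-fold. Its means were 364 ± 117 and 68 ± 31.1 (SD, n = 2), 5.35-fold, for a log2 fold change of 2.44 (SE 0.39, and an adjusted p = 0.015 by limma). Plk2 lies on chromosome 13 (110395046 to 110400844, plus strand). When wild-type replicate 2 was left out it still passed (adjusted p = 0.0487 by limma), and with any other library left out it did not, with log2 fold changes from 1.97 to 2.92.

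None of the other 8 p53 response genes tested passed. Phlda3, which encodes an inhibitor of AKT, was at 396 and 278 versus 220 and 206 (log2 fold change 0.64, SE 0.21, and an adjusted p = 0.095 by limma). Eda2r, which encodes a receptor of the TNF receptor family, was at 241 and 166 versus 154 and 151 (0.39, interval -0.19 to 0.96). In both, knockout replicate 1 was the higher library, while for Plk2 and Pmaip1 it was replicate 2. Ccng1 (cyclin G1), with the best p53 response element match shown above, was at 2324 and 1845 versus 1818 and 1715 (0.23, interval -0.11 to 0.57). Zmat3, an RNA-binding p53 target, was at 850 and 767 versus 693 and 724 (0.19, interval -0.10 to 0.48). Aen, an apoptotic nuclease, was at 232 and 253 versus 242 and 250, nearly level (-0.02, interval -0.41 to 0.37).

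Sesn1, which encodes sestrin 1, a stress-induced inhibitor of mTORC1, was at 855 and 815 versus 1098 and 1085. Its groups did not overlap and replicates differed 1.05-fold and 1.01-fold, for a log2 fold change of -0.39 (SE 0.11, and an adjusted p = 0.060 by limma). Trp53inp1, which encodes a p53-induced nuclear and autophagy protein, was at 5123 and 3772 versus 5548 and 4677 (-0.21, interval -0.64 to 0.21). Btg2, an anti-proliferative p53 target that is also an immediate early gene, was at 1545 and 1909 versus 2236 and 1307. Its wild-type libraries differed 1.71-fold and enclosed the knockout ones (0.01, interval -0.63 to 0.64). Jun (3187 and 1973) and Dusp1 (1278 and 908), which are immediate early genes, were also higher in wild-type replicate 1 than in replicate 2. Gdf15, a secreted stress cytokine, was at 2 and 10 versus 16 and 4 and was not tested.

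Per kilobase of merged exon length, the order of the members was much the same in both groups, and the 5 highest were identical: Mcl1, Trp53inp1, Btg2, Ccng1 and Xiap. Mean levels of Mcl1 were 1080 counts per kilobase in wild-type and 1206 in knockout libraries. The other anti-apoptotic genes followed far lower, at 212 (Bcl2), 203 (Bcl2l1) and 146 (Bcl2l2) in the wild type. The groups overlapped for Bcl2 but not for Bcl2l1 and Bcl2l2, and the 95% intervals of Bcl2 and Bcl2l1 spanned 0. Bax (56.8), Bmf (55.5) and Bak1 (51.1) were lower again, and no BH3-only gene was above Bmf in the wild type. Summed per kilobase, the anti-apoptotic genes reached 1678 and 1732 in knockout libraries, 1718 and 1565 in wild-type libraries. The BH3-only genes summed to 181 and 202 per kilobase against 193 and 159, and both sums overlapped between the groups. The caspase and apoptosome genes summed to 335 and 339 per kilobase against 242 and 261, and the pore-forming genes to 145 and 167 versus 115 and 134, without overlap. Within these sums the means of Casp8 (149 in the wild type, 216 in the knockout), Apaf1 (48.3 and 69.1) and Bok (16.6 and 36.7) differed most. Casp9, Casp6, Bax and Bak1 each overlapped between the groups. In the wild type, Plk2 ranked at place 30 of 37 per kilobase and in the knockout at place 16, while Bmf went from place 18 to 28.

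**Figure D3:**
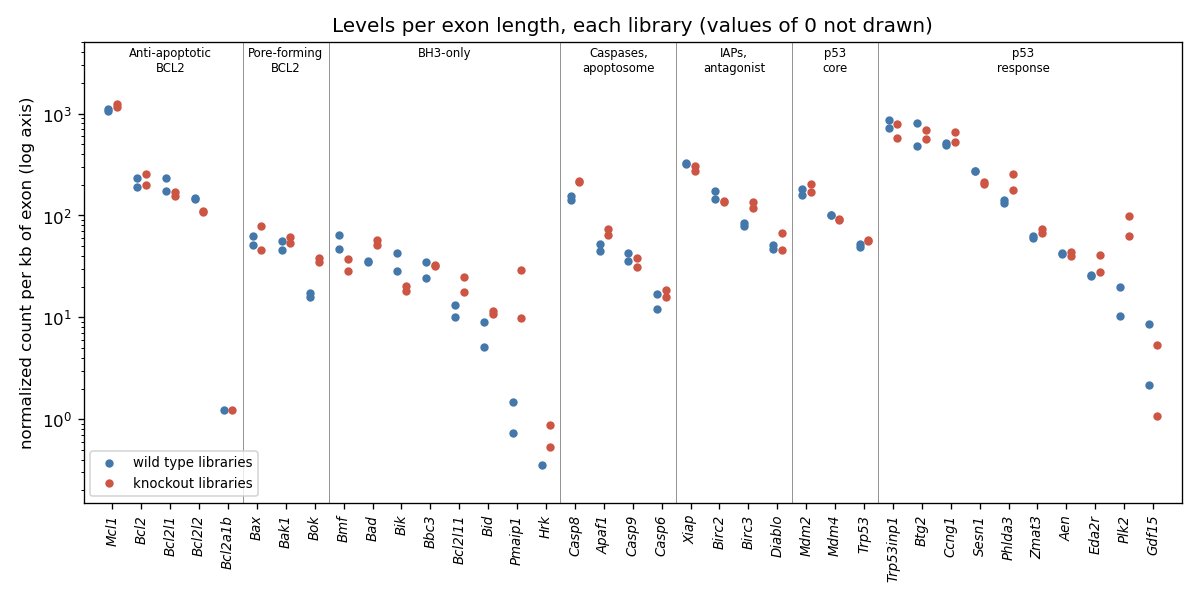
Normalized count per kilobase of merged exon (y axis, log scale) of the 37 members in each library, grouped by role. Blue points are wild-type and red points knockout libraries. Mcl1 stands above the other BCL2 genes in all 4 libraries, and Plk2 and Pmaip1 show the widest gaps between the groups.

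Of 82 further genes of these pathways, listed by role, 74 were tested, 6 rose and 5 fell. Of all genes tested, 9.58% were higher and 6.7% lower at the same threshold. The median log2 fold change of the 74 was -0.04. At an unadjusted limma p under 0.05, 15 of the 74 were higher and 14 lower. In all, 4898 of the 15058 genes tested were under it. In the death receptor and necroptosis list 3 of 14 tested rose and 2 fell. Tnfrsf1a, the main TNF receptor, was at 1651 and 1754 in knockout libraries, 921 and 1076 in wild-type libraries (log2 fold change 0.77, SE 0.12, and an adjusted p = 0.015 by limma). Mlkl, the executioner of necroptosis, was at 416 and 342 versus 60 and 120 (2.14, SE 0.34). Ripk3, the kinase that activates MLKL, was at 65 and 148 versus 12 and 24 (2.46, SE 0.55), and was named after its values were seen. Fas, a death receptor and p53 target, fell from 475 and 622 to 221 and 300 (-1.07, SE 0.22, and an adjusted p = 0.026 by limma). Cyld, a deubiquitinase of TNF receptor signalling, fell from 1365 and 1250 to 825 and 679 (-0.80, SE 0.14).

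Among the other p53 response genes, 2 of 29 tested rose and 3 fell. Perp, a p53 target of desmosomes and apoptosis, fell from 1322 and 998 to 486 and 372 (log2 fold change -1.43, SE 0.20, and an adjusted p = 0.012 by limma). Rrm2b, the p53-inducible ribonucleotide reductase subunit, fell from 611 and 637 to 383 and 379 (-0.71, SE 0.12). The third to fall was Fas. Ckap2, which is also a mitotic spindle gene, was at 110 and 197 in knockout libraries, 22 and 38 in wild-type libraries (2.31, SE 0.42). Dram1, a lysosomal p53 target named after its values were seen, was at 1002 and 1489 versus 372 and 632 (1.33, SE 0.30). Cdkn1a, which encodes the p53-induced cell cycle inhibitor p21, was at 621 and 424 versus 336 and 250. Its groups did not overlap, but it missed the threshold (0.82, SE 0.24, and an adjusted p = 0.069 by limma), and it too was named after its values were seen.

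In the remaining lists few genes passed. Of 19 further genes of the intrinsic route tested, Naip2 rose (101 and 209 versus 22 and 23, log2 fold change 2.64, SE 0.41), an inflammasome sensor of the BIRC family, and none fell. Parp1, a DNA repair enzyme cleaved by caspases, was at 483 and 551 versus 753 and 702 (-0.49, SE 0.13, and an adjusted p = 0.054 by limma). Bcl2l13 was at 684 and 674 versus 503 and 546 (0.37, SE 0.12). Birc5, which encodes survivin and is expressed in mitosis, was at 35 and 119 versus 5 and 23 (2.45, SE 0.86, and an adjusted p = 0.11 by limma). Of 14 p53 regulators tested, Trp53bp1 fell from 2101 and 2144 to 1638 and 1541 (-0.42, SE 0.10, and an adjusted p = 0.041 by limma) and none rose. Ppp1r13b (-0.40), Trp53bp2 (-0.32) and Rchy1 (-0.33) had negative log2 fold changes and did not pass.

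All 4 members that rose had the same order of libraries as the summed macrophage markers: wild-type replicate 1 the lowest, then wild-type replicate 2, knockout replicate 1 and knockout replicate 2. The marker sums were 1472, 4149, 16166 and 22466 in that order, and 14 of the 15 markers shared it. It was not particular to macrophage markers. The summed fibroblast markers (89865, 197852, 314281 and 328740) had it too, and so did the neutrophil, lymphocyte and proliferation sums. The adipocyte, endothelial, smooth muscle and immediate early sums did not. This order held for 6 of the 34 members tested (Bcl2l11 and Apaf1 besides the 4) and for 13.2% of all genes tested. It was looked at after the values were seen. Only genes with both knockout values above both wild-type values can have it. These were 15 of the 34 members and 30.7% of all genes tested, so the 13.2% is no base for the 4 that rose. Of the neutrophil markers, Csf3r, the receptor of granulocyte colony-stimulating factor, was at 70 and 265 in knockout libraries, 5 and 6 in wild-type libraries (adjusted p = 0.015 by limma). S100a9, a calcium-binding protein gene of myeloid cells, was at 15 and 189 versus 0 and 0 (adjusted p = 0.033 by limma). Both met the limit on low values through their knockout libraries alone. The defining markers Ly6g and Mpo were at 0 in all 4 libraries. Lymphocyte markers summed to 31 and 40 versus 9 and 10. The part of these cells in the rise of Plk2, Pmaip1, Birc3 and Casp8 was not tested.

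Of 15 immediate early genes, 5 rose in the knockout (Junb, Egr2, Egr3, Ier2 and Nr4a1) and none fell, and 0 were lower at an unadjusted limma p under 0.05. Their summed level was 8898 and 10904 in knockout libraries, 9687 and 6616 in wild-type libraries, so the groups overlapped. Of 10 proliferation genes 8 rose, with sums of 3753 and 5599 versus 482 and 959. These sums had the same order of libraries as Plk2, Pmaip1, Birc3 and Casp8, and as the macrophage sum. Among those 8, Cdk1, Bub1 and Aurkb met the limit on low values through their knockout libraries alone. The part of immediate early induction in the rise of Plk2 was not tested. Nor was that of proliferating cells in the rise of Plk2, Pmaip1, Birc3 and Casp8.

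**Figure D4:**
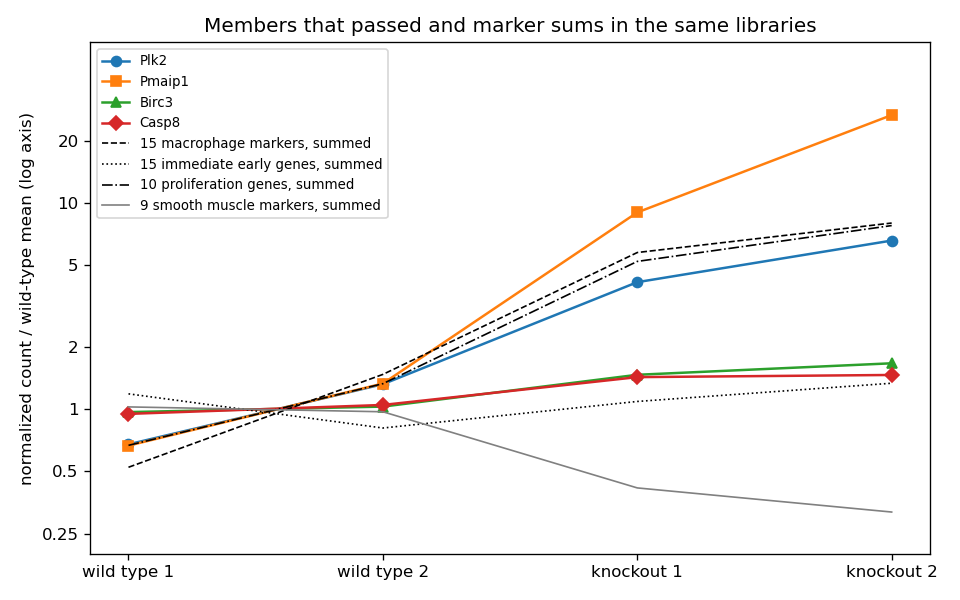
Normalized count divided by the wild-type mean (y axis, log scale) in each library for the 4 members that passed, with the summed macrophage, immediate early, proliferation and smooth muscle genes. Lines only join the points of 1 gene or sum. Macrophage and proliferation sums and all 4 members are highest in knockout replicate 2, and the smooth muscle sum is lowest there.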

How the data were processed

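The table, which the authors deposited with a column for each library, holds a score: read counts that the authors normalized and rounded, per the file's name and its values. Integers missing at regular steps (knockout) or seen too often (wild type) show a division by 1 factor per library, estimated at 0.887 and 0.890 (knockout) and 1.10 and 1.16 (wild type), from which the reads on genes were estimated. Per the submitters' processing notes, FastQC, STAR 2.5.2b, featureCounts 1.5.1 (Subread), DESeq2 1.14.1 and mm10/GRCm38 were used, with no roles given. The sources used here give no annotation release or strand setting. Per the labels' protocols, libraries came from ribosome-depleted total RNA with a stranded kit.

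Values were tested as log2(value + 1) with limma 3.58.1 in R 4.3.3: group as the only term, an intensity trend (3.96 prior and 2 residual degrees of freedom), genes with a mean of at least 10, two-sided p-values and Benjamini-Hochberg adjustment over 15058 genes. The test was also run on simulated counts, with changed genes drawn only from genes with a mean of at least 10, so the filter was not tested. The simulated counts had the same dispersion for every gene, which was not taken from these libraries. No count model was used, since rounding hides some read numbers. Gene positions and exon lengths come from GENCODE M21 (GRCm38). Named genes were the 37 members, the up to 4 genes with the smallest p of each of the 4 further pathway lists, Yap1 and Wwtr1. Every other gene named falls outside this rule and was chosen after its values were seen. These were paralogs, overlapping, marker, immediate early and proliferation genes, Ripk3, Dram1, Cdkn1a and the genes under other observations. The members and lists were chosen with earlier results of these data known. TMM factors were computed from their published formula. Same-numbered libraries share only a number in the labels.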

Additional observations from a re-analysis of the deposited data

How the results depend on the processing

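Other pseudocounts and TMM factors left 4 members called higher and 0 lower. A stricter limit on low values (a mean of at least 50) left 30 members tested, 3 of them higher and 0 lower. Pmaip1 was under that limit and was not in that fit. Rescaling to the same total gave 5 higher. Quantile normalization gave 4 higher and 1 lower (Bcl2l2, limma adjusted p = 0.049), and it moved the median of all genes from -0.02 to -0.10, against 0.06 at the same total. With the replicate block, 6 members were called higher (with Bcl2l11, 0.044, and Apaf1, 0.044, as limma adjusted p-values) and 1 lower (Bmf, 0.035). The deviations of same-numbered libraries correlated at 0.118 across genes, and the numbers are not known to mark shared animals. Without the filter on low values and without the intensity trend, limma called 0 members (12 at an unadjusted p under 0.05 in each), 0 genes in all (5472 and 4274) and 0 further pathway genes (27 and 17), where the cause was not tested. With 1 library left out, counts ran from 0 to 1 for members higher and were 0 for members lower; from 0 to 587 and from 0 to 153 for all genes higher and lower; and from 0 to 1 and 0 for the further pathway genes. The single calls came from leaving out wild-type replicate 2. Such fits keep 3 libraries and assume that the lone library of a group varies like the others. The sign of 8 members that did not pass turned in some settings. Quantile normalization gave -0.10 for Bax and -0.11 for Bbc3, and the same total gave 0.062 for Aen. With 1 library left out, log2 fold changes ran from -0.10 to 0.28 for Bcl2, -0.28 to 0.46 for Bax, -0.11 to 0.39 for Bbc3, -0.080 to 0.46 for Diablo, -0.011 to 0.26 for Mdm2, -0.43 to 0.0082 for Trp53inp1, -0.084 to 0.041 for Aen and -0.38 to 0.39 for Btg2. No sign turned among the 4 members called. Having 2 libraries a group limits the precision of every value, and counts are low for Pmaip1, Bok and Bik.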

Other observations

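Bcl2l14, a BCL2 family gene below the limit on low values, had 9 and 11 normalized counts in the wild-type libraries and was listed at 0 in the knockout ones. Tnf was at 2 and 26 in knockout libraries, 0 and 1 in wild-type libraries, and Fasl at 0 and 3 versus 0 and 0. Tnfsf10, which encodes the ligand TRAIL, was at 168 and 145 versus 48 and 117, and its receptor gene Tnfrsf10b at 150 and 192 versus 190 and 184. Cflar, the inhibitor of caspase-8, was at 3602 and 3722 versus 3389 and 3510 (log2 fold change 0.09), beside the rise of Casp8. Trp63 was at 19 and 20 versus 24 and 22, and Trp73 at 0 and 0 versus 1 and 0.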
